A study of Canis lupus familiaris with 12 samples.

Results

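Cytokine receptors, a decoy receptor and an inhibitor of cytokine signalling were measured in MDCK cells (Madin-Darby canine kidney), an established epithelial line of dog renal tubule, held in acid medium. These were the 4 genes IL13RA2, LIFR, ACKR3 (also called CXCR7) and SOCS3, of 944 that could be named on the array. Every non-control probe assigned to a RefSeq transcript of these genes was taken, which gave 6 of the 43603 gene probes: 3 for IL13RA2 (A_11_P051016, A_11_P148078 and A_11_P184983; transcript NM_001003075) and 1 each for LIFR (A_11_P0000020125; NM_001005760), ACKR3 (A_11_P0000019995; NM_001003281) and SOCS3 (A_11_P0000021527; NM_001031631). All MDCK cells were grown to confluence, moved to serum-free medium at pH 7.4 a day ahead, and then kept for 24 h at pH 7.4, the control group, or at pH 7.0, the acid group, in which bicarbonate had been lowered. The cells carried no other treatment or genetic change in the labels. Each of 3 biological replicates, extracted on different dates, gave 1 RNA per pH, and each RNA was hybridised to 2 arrays, so that 6 arrays stand for 3 RNAs in each group. The question of the study was whether acid alters the expression of proinflammatory cytokine genes. MDCK is an established line, so the replicates are extractions and not animals.

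The 4 proteins act at different points. IL13RA2 binds interleukin 13 tightly through an extracellular domain but has a short cytoplasmic tail that lacks the JAK-binding motif of signalling receptors, so it is known chiefly as a decoy that takes the ligand away from the signalling pair IL4R and IL13RA1. LIFR is a signalling receptor: with gp130 (IL6ST) it carries the signals of leukaemia inhibitory factor and related cytokines through JAK kinases to STAT3, and LIF is known in kidney development for promoting the conversion of mesenchyme to tubule epithelium. ACKR3 is an atypical chemokine receptor that binds CXCL12 and CXCL11, recruits arrestin rather than driving classical G protein signalling, and removes its ligands by internalisation. SOCS3 is an intracellular inhibitor, induced by STAT3, that binds gp130 and JAKs and shuts off the signalling of gp130 receptors.

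Levels are log2 processed signals minus the 75th percentile of the same array, so a negative level lies below that percentile. They are compared within a probe only, because probes differ in how brightly they report. The scanner software called 49.4% to 70.4% of gene probes well above background, depending on the array, with the lowest shares, 49.4% to 54.1%, on the arrays of biological replicate 2. Each biological replicate lay on its own slide with its own scan date, so slide, scan and extraction cannot be told apart. As a check on the cells, all 4 of the fixed kidney epithelium markers that had a named probe (OCLN, TJP1, CGN and ATP1B1) were well above background on all 12 arrays. Of 6 tubule segment markers, CUBN and CA2 were above it on all 12, AVPR2 on 11, SLC5A2 on 10, AQP1 on 5 and UMOD on 0. Of 3 immune markers, CD8A was above background on 7 arrays, CD4 on 5 and MS4A1 on 0, and their summed level was 0.0282 to 0.0700 at pH 7.0 and 0.0254 to 0.0729 at pH 7.4, in multiples of the 75th percentile. Of 4 fibroblast markers, COL1A1 and COL1A2 were above background on all 12, PDGFRB on 10 and DCN on 1, and of 2 endothelial markers, VWF on all 12 and KDR on 3. Their part in the results was not tested. The summed level of the epithelial markers ranged from 15.8 to 25.8 at pH 7.0 and from 15.2 to 30.7 at pH 7.4, in multiples of the 75th percentile. For the tubule segment markers it was 18.0 to 37.2 and 28.2 to 43.9. For the fibroblast markers it was 1.18 to 2.21 and 1.37 to 2.44, and for the endothelial markers 1.32 to 5.02 and 1.51 to 2.56.

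IL13RA2 was lower at pH 7.0 by each of its 3 probes, by an estimated 1.84-fold, 1.86-fold and 1.73-fold, and did not pass the test over all probes. The estimates were -0.88 ± 0.28 for A_11_P051016, -0.89 ± 0.27 for A_11_P148078 and -0.79 ± 0.28 for A_11_P184983 (log2 change, pH 7.0 minus pH 7.4, ± SE of limma's paired fit, n = 3 pairs of RNAs). Their limma adjusted p were 0.259, 0.233 and 0.292. LIFR stood at -0.28 ± 0.24, ACKR3 at 0.23 ± 0.22 and SOCS3 at 0.21 ± 0.28, with limma adjusted p of 0.698, 0.733 and 0.810. Of all 27136 tested probes limma called 0 at an adjusted p under 0.05, which is 0%, and 3324 had an unadjusted p under 0.05. The median change over all tested probes was 0.012 (log2). The 3 IL13RA2 probes had unadjusted p of 0.0114, 0.00821 and 0.0172 in limma, against a background of 5.77% of tested probes that were lower at that unadjusted threshold, and they read 1 transcript, so they count as 1 gene and not as 3 results.

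**Figure D1:**
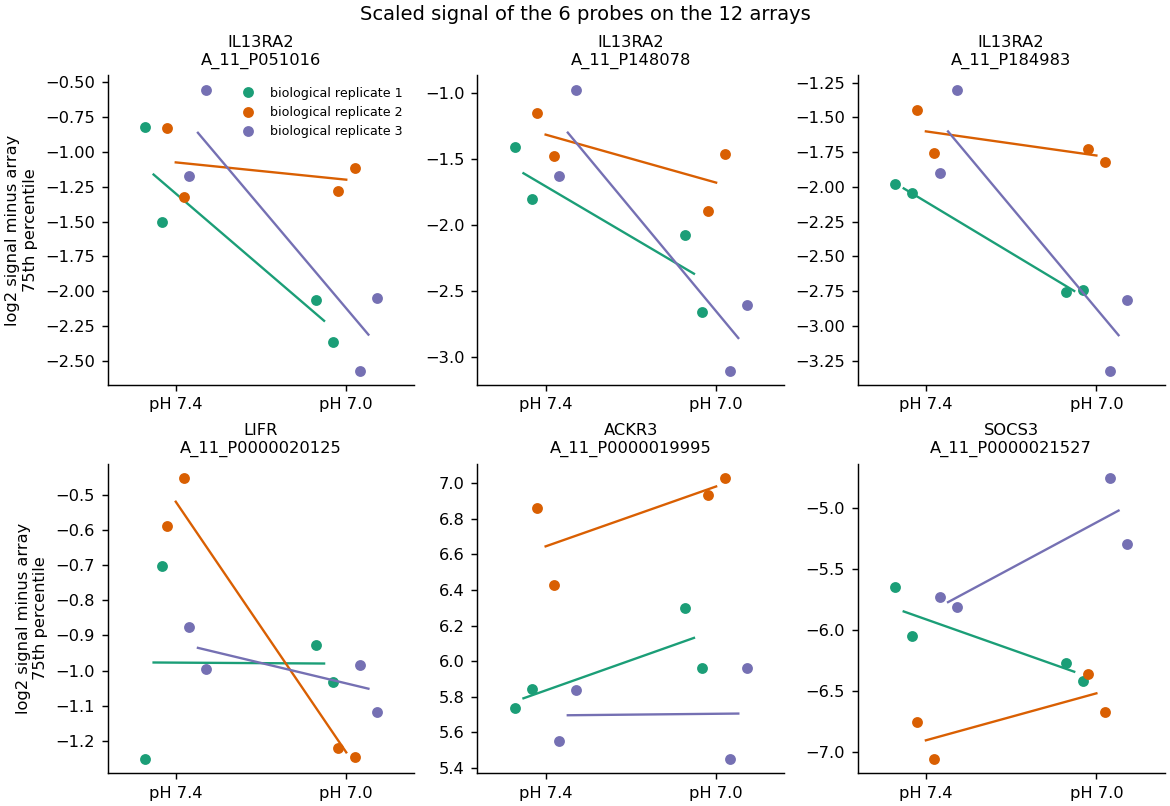
Level of each probe on the 12 arrays (log2 signal minus the array's 75th percentile), with pH 7.4 on the left and pH 7.0 on the right of each panel; points are arrays, colours are biological replicates, and lines join the means of the 2 arrays of each RNA. All 3 lines slope down for each IL13RA2 probe, least in biological replicate 2, and the vertical scales differ between panels.

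The decoy receptor was measured on every array. The probe A_11_P051016 was printed at 5 spots, and the spots of an array agreed closely, with an SD of 0.041 to 0.15 on the log2 scale (median 0.056). Its levels at pH 7.0 were -2.21, -1.20 and -2.31 in the RNAs of biological replicates 1 to 3, against -1.16, -1.07 and -0.86 at pH 7.4. The acid RNAs were thus all below the control RNAs, but that of biological replicate 2 lay only 0.037 below the lowest control RNA.

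The differences of A_11_P051016 within biological replicates 1, 2 and 3 were -1.05, -0.12 and -1.45, which are 2.07-fold, 1.09-fold and 2.74-fold lower. The 95% interval of the mean change ran from -1.51 to -0.25 in limma, without allowance for the number of probes tested. In 1.69% of tested probes the estimated change was lower still.

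The other probes of the gene followed the same order of replicates. A_11_P148078 had differences of -0.76, -0.36 and -1.55, and A_11_P184983 had -0.74, -0.17 and -1.46. All 3 IL13RA2 probes were thus lower in each of the 3 biological replicates, as were 15.7% of tested probes. Acid RNAs that all lay below the control RNAs were seen for 2 of the 3 IL13RA2 probes, and for 3.61% of tested probes. For the third, A_11_P184983, the acid RNA of biological replicate 2 (-1.78) lay above the control RNA of biological replicate 1 (-2.01). Across the 12 arrays the levels of the probes correlated pairwise at r = 0.961, 0.947 and 0.945. These are a description, since the probes share the arrays, the RNA and the transcript.

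**Figure D2:**
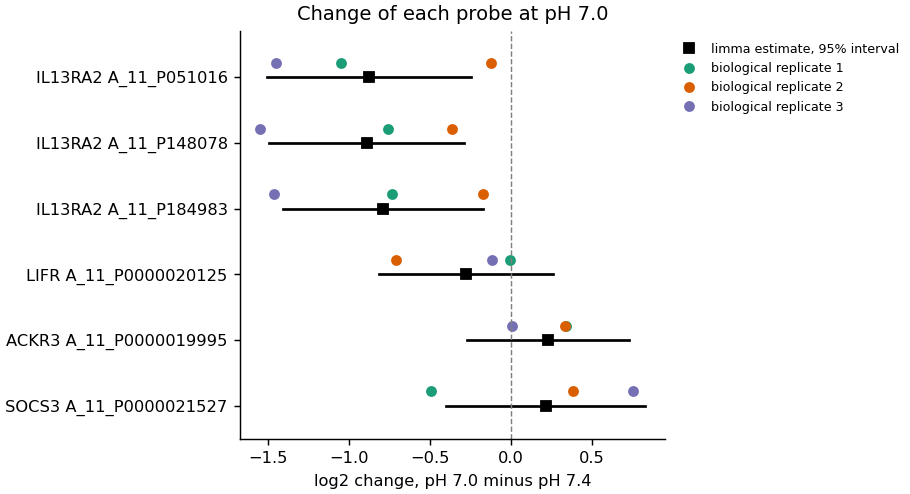
Log2 change of each probe, pH 7.0 minus pH 7.4: squares are limma estimates with 95% intervals and coloured points are the 3 biological replicates, drawn above the bar. The intervals of the 3 IL13RA2 probes end below 0 before adjustment over all probes and those of LIFR, ACKR3 and SOCS3 include 0; for ACKR3 the points of biological replicates 1 and 2 coincide.

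Biological replicate 2 had the smallest difference for all 3 IL13RA2 probes. Without it the estimates were -1.25, -1.16 and -1.10 in the order above, and A_11_P051016 passed over all probes (limma adjusted p = 0.0323) while the others did not (adjusted p = 0.0583 and 0.0802). That fit had 2 pairs and gave every one of the 3 probes the same SE, 0.364, and it called 647 probes in all. Without biological replicate 3 the estimates were -0.59, -0.56 and -0.46 (limma adjusted p = 0.779, 0.753 and 0.835).

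Before scaling between arrays, the IL13RA2 groups stood further apart. The processed signal of A_11_P051016 had a lowest value of 127, a median of 165 and a highest of 206 intensity units at pH 7.0, against 233, 320 and 417 at pH 7.4. No acid array reached the lowest control array. For A_11_P148078 the signals were 86.3, 133 and 169 at pH 7.0 and 185, 265 and 277 at pH 7.4, again with no overlap. For A_11_P184983 they were 74.9, 111 and 152 against 152, 197 and 229, and the groups touched. Signals with all 6 acid arrays below all 6 control arrays were found in 0.291% of tested probes. On the scaled levels the arrays of the groups overlapped for each of the 3 probes, and 0.789% of tested probes had all acid arrays below there.

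Without scaling, the changes of the IL13RA2 probes were -0.98, -0.99 and -0.89 (limma adjusted p = 0.233, 0.212 and 0.259), and biological replicate 2 of A_11_P051016 stood at -0.43. This alternative was added after the values were seen. It shifted the estimates of the other members downward alike, to -0.38 for LIFR, 0.13 for ACKR3 and 0.11 for SOCS3. The median over all tested probes moved to -0.089 under it. Scaling subtracts the same value from every probe of an array. Leaving it out must therefore shift every probe measured on all arrays by an equal amount. That shift cannot show whether IL13RA2 differs from other probes. Arrays of the same RNA also lay closer for A_11_P051016 before scaling: their SD was 0.16 unscaled and 0.35 scaled. Over all tested probes the median of that SD went the other way, 0.41 unscaled and 0.30 scaled.

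**Figure D3:**
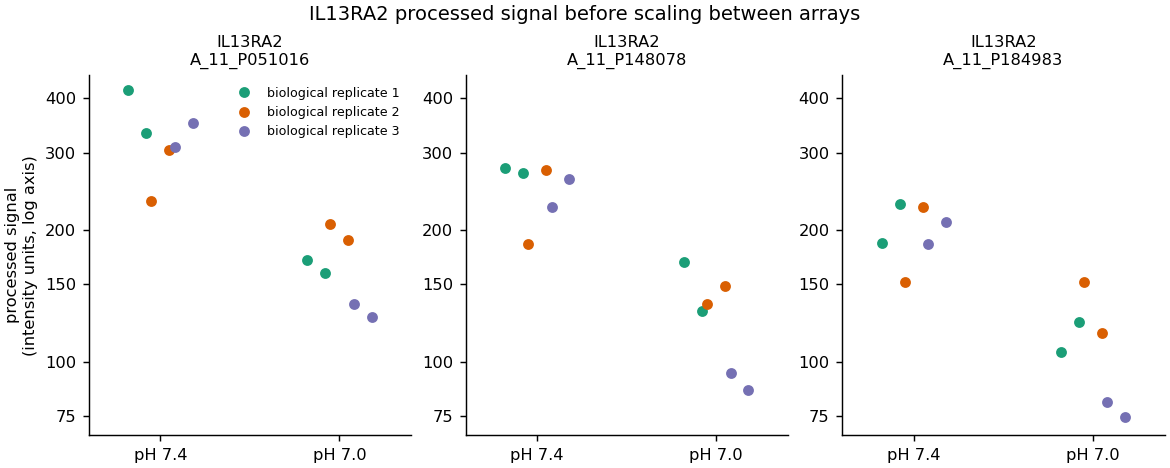
Processed signal of the 3 IL13RA2 probes on the 12 arrays before any scaling between arrays, in intensity units on a log axis; points are arrays and colours are biological replicates. For A_11_P051016 and A_11_P148078 the 6 arrays at pH 7.0 lie below the 6 at pH 7.4.

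The signalling receptor LIFR did not pass the test and its estimate rested mainly on biological replicate 2. Its levels were -0.98, -1.23 and -1.05 at pH 7.0 and -0.98, -0.52 and -0.94 at pH 7.4 in biological replicates 1 to 3, so that the groups differed most in the second. The acid RNAs varied little among themselves (SD 0.13, n = 3), and the highest of them lay 0.0029 below the lowest control RNA, a gap far smaller than that between the arrays of an RNA (SD 0.17). Acid RNAs that all lay below the control RNAs were seen for 3.61% of tested probes.

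The LIFR differences were -0.0029, -0.71 and -0.12, all below 0, as in 15.7% of tested probes. The 95% interval of the mean change ran from -0.81 to 0.26, that is from 0.569-fold to 1.20-fold of the control signal. Without biological replicate 2 the estimate was -0.059 (limma adjusted p = 0.994). Of its control arrays, numbers 1 and 2, which hold 1 RNA, read -1.25 and -0.70, the widest gap between duplicates for this probe. Unscaled LIFR signals were 173 at the lowest, 308 in the median and 408 at the highest at pH 7.0, against 257, 344 and 580 at pH 7.4, and overlapped. Unlike the IL13RA2 probe above, LIFR had closer duplicates after scaling (SD 0.17) than before (0.49).

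ACKR3 gave a signal near the top of the scanner's range. Its levels were 6.13, 6.98 and 5.71 at pH 7.0 and 5.79, 6.65 and 5.70 at pH 7.4, so that biological replicates differed more than the media did, with replicate 2 highest in each group. The differences were 0.34, 0.34 and 0.0095, all above 0, as in 18% of tested probes, but that of biological replicate 2 uses a saturated control array and was 0.12 against its unsaturated duplicate alone. The 95% interval ran from -0.27 to 0.73, or from 0.829-fold to 1.66-fold.

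The median signal of the ACKR3 spot was between 44.8% and 100% of the scanner's saturation value of 65528, and the spot was saturated on 1 of 12 arrays, number 4 at pH 7.4. There was room for a rise of at most 1.16 on the log2 scale on any array, and of 0.10 to 0.97 on the 6 acid arrays. Without that array the change was 0.16 ± 0.22 (limma adjusted p = 0.827). Quantile normalization gave 0.084 and normexp background correction 0.45, and neither passed.

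SOCS3 was at the other end of the range, close to background. The scanner call was positive on 4 acid and 3 control arrays, 1 more in all than the 6 needed for a test. Its processed signal was 4.01 at the lowest, 9.42 in the median and 30.1 at the highest at pH 7.0, against 3.82, 11.1 and 14.6 at pH 7.4. Its levels were -6.34, -6.52 and -5.02 at pH 7.0 and -5.85, -6.91 and -5.77 at pH 7.4. Groups overlapped, and the RNA of biological replicate 3 at pH 7.0 was the highest.

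The SOCS3 differences were -0.50, 0.39 and 0.75, which differ in sign, and the 95% interval ran from -0.40 to 0.83. Without biological replicate 3 the estimate was -0.055, with a limma adjusted p of 0.987. In biological replicate 2 no array was well above background, so its difference compares values below the call. The processed signals there were 3.82 to 6.10 intensity units, although the spots' median pixels, 91.5 to 118, stood over local backgrounds of 37 to 52. Under normexp correction, which starts from the median pixels and the local background, the SOCS3 change had the opposite sign, -0.72 ± 0.41 (limma adjusted p = 0.671), and the median over all tested probes was -0.19.

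**Figure D4:**
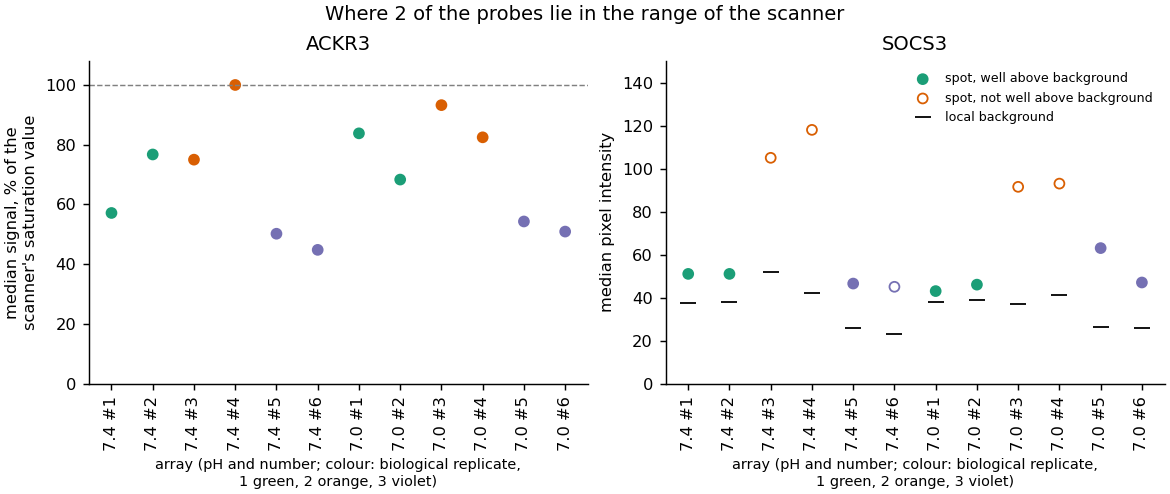
Left, median signal of the ACKR3 spot as a percentage of the scanner's saturation value on each array; right, median pixel intensity of the SOCS3 spot (circles, filled where well above background) and of its local background (dashes). ACKR3 reached 100% on array 4 at pH 7.4, and SOCS3 was above background on 7 of 12 arrays and on none of biological replicate 2 (orange).

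Genes that act with the 4 members were sparsely covered by named probes. Only 3.40% of gene probes could be given a symbol, so a gene without a named probe may still be on the array. Of 156 related genes in 7 lists, 33 had a named probe and 14 could be tested. Of these 14, by the brightest probe, 0 passed limma's adjusted threshold; 8 had estimates above 0 and 6 below, with a median of 0.028 beside 0.012 over all tested probes. At an unadjusted limma p under 0.05 there were 0 higher and 1 lower, IL5, where 12.2% of all tested probes met that threshold in either direction.

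The IL-4 and IL-13 axis had 25 genes, 9 with a probe and 3 tested. The ligands themselves, IL4 and IL13, were well above background on 0 of 12 arrays, as was CCL26, a chemokine that IL-13 induces. IL5, the eosinophil cytokine of the same type 2 group, was at -0.96 ± 0.26 (limma adjusted p = 0.210), with -0.62, -0.64 and -1.63 by biological replicate. IL2RG, the shared gamma chain that pairs with IL4R, stood at -0.012 ± 0.22 and was above background on 8 of 12 arrays. CCL17, a chemokine of type 2 responses, stood at 0.25 ± 0.23 with saturation on 2 arrays at pH 7.0. CCL24, an attractant of eosinophils, was above background on 0 arrays at pH 7.0 and 2 at pH 7.4. Its measured mean was 1.47-fold lower at pH 7.0 (-7.12 against -6.57). The alarm cytokine IL33 was above background on 0 and 1 arrays, and the measured means of its probes were 1.33-fold and 1.55-fold lower at pH 7.0. The chemokine receptor CCR3 and the stem cell factor receptor KIT were likewise above background on 0 acid arrays and 1 control array. Their measured means went the other way and were higher at pH 7.0 (-6.43 against -6.75 and -7.36 against -7.54). These dim probes were not tested. Their means include the arrays on which they were not above background, so the folds set no lower limit on a change.

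In the LIF and gp130 axis 2 of 18 genes had a probe and 0 were tested; LIF, IL6ST, STAT3 and JAK2 had no named probe, and in the other axes nor did IL4R, IL13RA1, STAT6 and CXCR4. IL6, the cytokine that signals through gp130, was above background on 1 array in each group by its probe most often above it. CNTFR, the receptor subunit for ciliary neurotrophic factor, was above it on 0. In the list of STATs and STAT3 targets all 6 genes with a probe were tested, and 0 passed: CCND1, a cyclin of the G1 phase, was at 0.47 ± 0.25, VEGFA, the vascular growth factor, at -0.49 ± 0.24, BCL2L1, a survival protein, at 0.22 ± 0.23, and PIM1, a kinase, at 0.20 ± 0.23. MCL1 and MYC stood at 0.088 ± 0.22 and 0.0014 ± 0.25. BCL2L1 was above background on 8 of 12 arrays and the other tested genes of this list on all 12. The limma adjusted p in this list ran from 0.443 for VEGFA to 0.999 for MYC.

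For the ACKR3 axis, 8 of 28 genes had a probe and 2 were tested. CXCL12, the main ligand of ACKR3, was above background on 0 of 12 arrays. ADM, the vasodilator peptide adrenomedullin that ACKR3 can also bind, was above background on all 12 and stood at -0.096 ± 0.23. CXCR3, the signalling receptor for CXCL11, was above background on 9 arrays at -0.017 ± 0.22. CCR1, a chemokine receptor of leukocytes, was above it on 0.

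The list of SOCS proteins and other brakes on JAK-STAT signalling had 0 of 19 genes with a named probe besides SOCS3, so the rest of that family was not analysed here. Among other decoys and antagonists, IL18BP, a secreted trap for interleukin 18, was above background on all arrays at 0.054 ± 0.23, and IL1RN, the interleukin 1 receptor antagonist, was above it on 0. Of 35 other cytokine receptors, 6 had a probe. EPOR, the erythropoietin receptor, stood at 0.28 ± 0.28 and IL12RB2, a chain of the interleukin 12 receptor, at -0.30 ± 0.28. By biological replicate EPOR was at -0.021, -0.20 and 1.06, and IL12RB2 at 0.039, -1.07 and 0.13. IL12RB2 was above background on 8 of 12 arrays. Of the others, LEPR, GHR and IL2RA, the receptors for leptin, growth hormone and interleukin 2, were above background on 0 of 12 arrays.

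**Figure D5:**
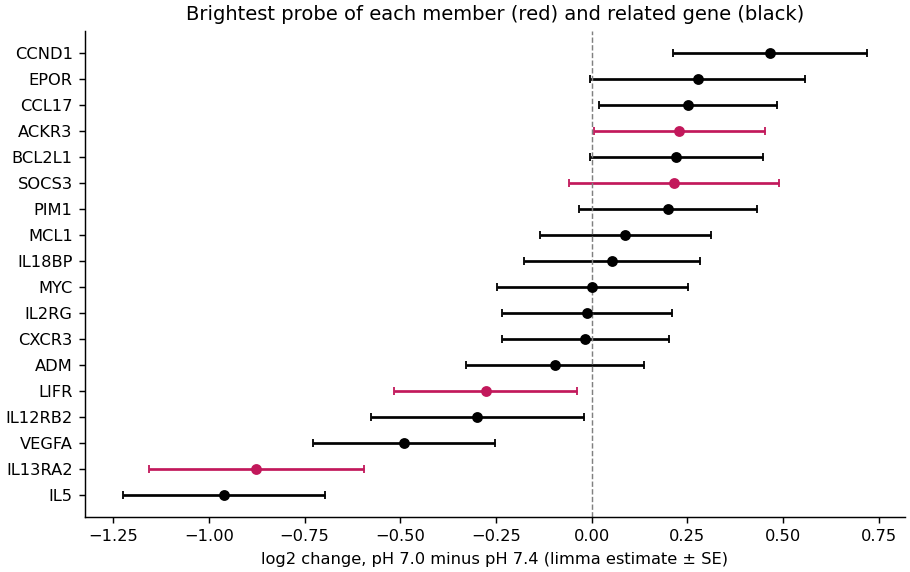
Log2 change at pH 7.0 against pH 7.4 by the brightest probe of each member (red) and of the 14 related genes tested (black); bars are the SE of the limma fit with 3 pairs of RNAs. IL5 and IL13RA2 have the lowest estimates, -0.96 and -0.88, and no gene passed the adjusted threshold.

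The named genes whose levels over the 6 RNAs were most like those of each member were found among the other 597 named genes with a tested probe. For IL13RA2 they were SSR1 (r = 0.966), a subunit of the translocon-associated complex of the endoplasmic reticulum, IL5 (r = 0.939) and NFKBIL1 (r = 0.933). Their changes were -0.31 ± 0.23, -0.96 ± 0.26 and -0.58 ± 0.22. For ACKR3 they were YBX3 (r = 0.986), a nucleic acid-binding protein, RARA (r = 0.933), a retinoic acid receptor, and MCL1 (r = 0.924). For SOCS3 they were the adenosine receptor ADORA2A (r = 0.994), SULT1A1 (r = 0.970), a sulfotransferase, and PRKACA (r = 0.969), a catalytic subunit of protein kinase A. Another tested ADORA2A probe was dimmer and was not used. Its difference in biological replicate 2 was -0.28, against 0.33 for the probe used. LIFR had the weakest likeness, led by SELENOS (r = 0.786), PTGER2 (r = 0.719) and SLC35A1 (r = 0.716). These Pearson correlations over 6 RNAs are a description. They were picked as the highest among 597 genes and were not tested. They include the differences between slides and between the pH groups. Those of SOCS3 also include the RNAs of biological replicate 2, in which its values lay below the background call.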

How the data were processed

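Cy3-labelled RNA of 6 extracts was measured on 12 single-colour Agilent dog arrays. Agilent Feature Extraction 10.7.3.1 made the scanner files, per the submitters' processing notes, and per the file headers these give, as intensity, the processed signal after background subtraction, each spot's median pixel and its local background, with other flags of 0 or 1 for spots well above background, saturated or outlying. The deposited value table of the authors holds log2 values; their scale and centring are not stated, and they matched the levels used here minus each probe's median (slope 1.00 on every array; column medians -0.226 to 0.225).

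Outlier spots (128) were set to missing, spots of a probe averaged as log2, the array's 75th percentile subtracted, and the 2 arrays of an RNA averaged. Probes well above background on at least 6 of 12 arrays, by over 50% of their spots, were tested with limma 3.58.1 in R 4.3.3 (lmFit, eBayes, two-sided), with the biological replicate as a block and Benjamini-Hochberg adjustment over 27136 probes at 0.05. The precision is limited by 3 pairs. Consecutive pairs of title numbers gave the biological replicates; the design text pairs the RNAs of each, and their deviations correlated at 0.394, 0.637 and 0.807. All replicates come from 1 line, so p-values cover only the spread between its extractions. Exact sign changes over 3 pairs cannot give a two-sided p under 0.25. Symbols, given to 1484 probes (3.40%), came from RefSeq accessions of UU_Cfam_GSD_1.0. The fit was tested on simulated data in which the 2 arrays of an RNA held the same values, so the averaging of duplicates was not tested there. The members and lists were chosen with earlier results of these data known; the rule named all member probes, up to 4 genes of lowest p per list, genes tied directly to a member and the 3 most alike named genes, and the markers and remaining list genes printed were named after their values were seen. The fold for a dim probe above background in 1 group only used, for the other group, the higher of its own level and the lowest signal above background. The probe's own level was used in each case printed, so these folds are ratios of measured means. Figures were drawn with matplotlib 3.10.9 under python 3.11.15. The alternatives were the block, duplicates, background, scaling, value table, filters, prior, threshold, and leaving out replicates or arrays (no scaling was added after seeing the data); the slide equalled the replicate and had no fit of its own.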

Additional observations from a re-analysis of the deposited data

How the results depend on the processing

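The count of called probes, 0 with limma as reported (3324 at an unadjusted p under 0.05), depended on the settings. It was 690 with all 12 arrays and the RNA as a random block, 192 with a trended and robust prior, 134 with probes above background on all 12 arrays, 71 at an adjusted p under 0.10, 24 with median scaling, 15 without scaling and 14 with normexp, and 0 to 647 when 1 replicate or array was left out: 647 without biological replicate 2, 277 without biological replicate 1, 15 without pH 7.0 array 6 and 4 without pH 7.4 array 1. Without the replicate block it was 0, and the IL13RA2 probe A_11_P051016 stayed at -0.88 with a limma adjusted p of 0.9999; no call on a member changed with the block. IL13RA2 and LIFR stayed below 0 and ACKR3 above 0 in every alternative run. A_11_P051016 ran from -1.25 to -0.59 over the samples left out and had a limma adjusted p of 0.0323 to 0.9999 over all alternatives; it passed only without biological replicate 2. The mean of the gene's 3 probes gave -0.85. The lowest limma adjusted p over the alternatives was 0.0583 for A_11_P148078, 0.0802 for A_11_P184983, 0.463 for LIFR, 0.563 for ACKR3 and 0.406 for SOCS3, and the highest 0.9999 for each. SOCS3 changed sign under normexp (-0.72) and without biological replicate 3, running from -0.055 to 0.57 over the samples left out; the cause was not tested. It had no value with the filter for all 12 arrays, and A_11_P051016 was not matched in the value table.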
